A study of Mus musculus with 12 samples.

Results

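The gene segments of the alpha and beta chains of the T cell receptor were followed in CD4 T cells sorted from mouse kidneys. The members are the genes named Trav, Traj, Trac, Trbv, Trbj or Trbc that GENCODE annotates as functional variable, joining or constant segments, which gave 197 of the 52632 genes in the table. They comprise 108 Trav, 51 Traj, 1 Trac, 22 Trbv, 13 Trbj and 2 Trbc segments. A further 43 receptor pseudogene segments were left out, and 10 of the Trav members also carry a delta chain name (dv). The alpha segments lie on chromosome 14 and the beta segments on chromosome 6 (GRCm38). The filter asked for an average of 1 FPKM or more over all 12 libraries (FPKM is the fragment count scaled by transcript length and by library size), which 137 members passed and 60 did not. The members nearest this limit were Trav3-4 at a mean of 0.960 FPKM below it and Trav9n-4 at 1.02 above it.

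Each developing T cell cuts and joins 1 V, 1 J and, for the beta chain, a D segment, so that a mature cell reads out only a small part of the germline set. The V segment supplies most of the variable domain, the J segment closes the hypervariable loop at the join, and the constant segment anchors the chain and pairs it with the CD3 proteins, which carry the signal into the cell. In a bulk sample the level of a V or J segment therefore depends on how many cells rearranged it as well as on how much receptor mRNA each cell holds. Fewer cells of a type and less RNA per cell cannot be told apart here.

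There were 4 groups of 3 libraries. Wild type mice (WT) were C57BL6/J animals bought from Jackson, and CD4 Keap1 KO mice (KO) were generated in house on C57BL6/J, so the genotype cannot be told apart from where the mice came from. Keap1 restrains the antioxidant transcription factor NRF2, and the labels do not say which Cre or which part of the gene was used. The IRI groups had ischemia-reperfusion injury of both kidneys with 30 min of ischemia and were harvested at 24 h. The control groups were other mice, and the labels are silent on sham surgery and on separate animals within a group. The p-values therefore rest on library-to-library spread alone, which may be technical.

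Sequencing depth per library is unknown from FPKM. Column totals were 739969 to 2089550 FPKM, of which the 197 segments took 1.24% to 5.81%. Keap1 was 8.50, 9.00 and 9.87 FPKM in WT controls and 6.61, 5.75 and 7.77 in KO controls. After IRI the genotypes overlapped, at 8.80, 6.31 and 6.03 in WT and 6.28, 5.95 and 4.59 in KO. The difference averaged over condition was -0.34 (adjusted p = 0.095, limma) as deposited and -0.61 (adjusted p = 0.048) after division by median ratios. The NRF2 target Nqo1 was at 0 to 0.543 FPKM in the 6 WT libraries and at 3.38 to 7.75 in the 6 KO libraries. Markers of other cells were present at uneven levels. The CD8 genes Cd8a and Cd8b1 summed to 2.89 to 19.4 FPKM, 4 gamma delta constant genes to 6.56 to 62.1, 4 NK cell genes to 3.73 to 24.9, and 6 tubule genes to 0.412 to 210 with the highest value in KO IRI 3. None of the markers of these lists was at 0 in every library. The 5 macrophage genes summed to 35.5 to 221 FPKM. Of the 7 B cell genes the summed level was 1540 FPKM in KO control 1, above the 645 FPKM of Trac there, and between 37.7 and 429 in all others, and the 4 neutrophil genes to 1.60 to 6.02 in the 6 control libraries and 2.88 to 32.4 in the 6 IRI libraries. The part of these cells in the results below was not tested.

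Segments differ in how much sequence they share with others, and a read that fits several cannot be placed, so a few are shown first (GENCODE release 21 transcripts, GRCm38). Trav11 (chr14:53519303-53519859, plus strand) and Trav11d (chr14:52824357-52824912, plus strand) are the alpha V segment of invariant NKT cells and its duplicate. The 342 bases of Trav11d are identical to the first 342 of the 343 bases of Trav11, and bases 101 to 180 show the identity.
Trav11: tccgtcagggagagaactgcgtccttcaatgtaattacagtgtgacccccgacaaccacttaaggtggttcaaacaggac
Trav11d: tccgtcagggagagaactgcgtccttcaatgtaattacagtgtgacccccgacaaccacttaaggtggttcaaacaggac
The constant segments Trbc1 (chr6:41538218-41539881, plus strand) and Trbc2 (chr6:41546730-41548352, plus strand) are identical over their first 259 bases. Bases 220 to 299 are shown, with the only position that differs there in capitals.
Trbc1: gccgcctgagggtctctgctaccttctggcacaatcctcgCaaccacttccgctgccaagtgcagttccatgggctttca
Trbc2: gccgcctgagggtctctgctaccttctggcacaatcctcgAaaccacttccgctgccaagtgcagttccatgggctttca

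The beta V segments, in contrast, were mostly distinct. The last 50 bases of 6 of them are given because the results on injury and genotype turn on them, namely Trbv13-1 (chr6:41116007-41116468), Trbv13-2 (chr6:41121396-41121832), Trbv13-3 (chr6:41130147-41130585), Trbv19 (chr6:41178375-41179048), Trbv26 (chr6:41227505-41227993) and Trbv29 (chr6:41271394-41271881), all on the plus strand. Capitals mark TGTGCNAGC, where N is any base, which starts with the codon of the conserved cysteine at which the joining loop begins. The motif was searched on the coding strand only and occurred in these last 50 bases in 17 of 22 Trbv segments (77.3%).
Trbv13-1: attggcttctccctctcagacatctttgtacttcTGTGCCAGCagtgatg
Trbv13-2: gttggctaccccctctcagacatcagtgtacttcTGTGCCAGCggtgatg
Trbv13-3: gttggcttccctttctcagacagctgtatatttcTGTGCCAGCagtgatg
Trbv19: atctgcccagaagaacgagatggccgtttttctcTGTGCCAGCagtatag
Trbv26: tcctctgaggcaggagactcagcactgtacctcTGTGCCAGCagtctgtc
Trbv29: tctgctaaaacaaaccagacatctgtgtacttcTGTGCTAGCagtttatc
Trbv13-2 and Trbv13-3, the closest pair of these, were identical at 308 of 340 aligned bases and shared 6.56% of their words of 36 bases, the read length. The other 4 segments shared no such word with any other segment.

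Joining segments are very short. Those of the beta chain span 46 to 54 bases and those of the alpha chain 55 to 66, so that a read of 36 bases fits inside one at few positions. The segments shown are those with the highest mean in their class (Trbj2-7, chr6:41543810-41543856; Traj9, chr14:54209393-54209450), those of the invariant NKT and MAIT receptors (Traj18, chr14:54200777-54200842; Traj33, chr14:54185358-54185414) and one with a large difference between genotypes (Traj50, chr14:54167590-54167652), all on the plus strand. Capitals mark the conserved stretch that ends the joining loop, searched as TTNGG, then 4 bases of any kind, then GG. In Traj33 they mark a second form, with TGGGG in place of TTNGG.
Trbj2-7: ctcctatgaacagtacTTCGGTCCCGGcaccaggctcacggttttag
Traj9: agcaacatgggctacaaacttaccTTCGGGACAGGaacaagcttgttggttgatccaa
Traj18: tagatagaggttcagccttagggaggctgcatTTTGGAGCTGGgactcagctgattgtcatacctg
Traj33: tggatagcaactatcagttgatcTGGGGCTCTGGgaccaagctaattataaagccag
Traj50: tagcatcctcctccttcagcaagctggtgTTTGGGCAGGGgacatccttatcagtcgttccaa
On the coding strand the first form occurred in 55 of 64 J segments (85.9%), and 2 of these also held the second form. Traj33 held the second form alone, and 8 segments held neither.

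The constant segments fell after injury in WT. Trac, the single alpha constant segment, stood at 424, 443 and 466 FPKM in WT controls and at 259, 226 and 218 after IRI. The groups did not overlap, and the difference on the log2(FPKM + 1) scale was -0.92 (SE 0.20, adjusted p = 0.033, limma over 19288 genes). Trbc1, 1 of the 2 beta constant segments, was 79.7, 73.1 and 79.4 FPKM in WT controls and 29.5, 30.9 and 32.2 after IRI. Its difference was -1.30 (SE 0.23, adjusted p = 0.013). Trbc2, the other, was 102, 95.8 and 103 against 47.3, 33.5 and 51.6 FPKM, a difference of -1.19 (SE 0.25, adjusted p = 0.028). Trbc1 and Trbc2 share 44.3% and 47.3% of their words of 36 bases with each other, so their separate levels are uncertain.

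In KO the same 3 segments were lower after IRI in every library, but none passed the threshold. Trac was 645, 494 and 740 FPKM in KO controls and 494, 408 and 477 after IRI, with the lowest control at 494.3 and the highest IRI library at 494.1. The difference was -0.43 (SE 0.20, adjusted p = 0.37, limma). Trbc1 was 139, 88.7 and 151 against 83.8, 55.0 and 55.1 FPKM (difference -0.95, SE 0.23, adjusted p = 0.089), and Trbc2 was 176, 112 and 195 against 102, 69.7 and 81.9 (difference -0.90, SE 0.25, adjusted p = 0.13). The difference between the genotypes in the response to IRI did not pass the threshold for any of the 3 (interaction of 0.49 for Trac, 0.35 for Trbc1 and 0.29 for Trbc2, each with an adjusted p of 0.999). Averaged over genotype all 3 fell, Trac by 0.68 (adjusted p = 0.015), Trbc1 by 1.12 (adjusted p = 0.0023) and Trbc2 by 1.04 (adjusted p = 0.0050) on the log2 scale.

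Among the 5 genes of the CD3 complex and the coreceptor, 2 passed after IRI in WT and 1 in KO, all lower. Cd3g fell after IRI by 2.15 in WT (SE 0.21, adjusted p = 0.0014, limma) and by 1.37 in KO (SE 0.21, adjusted p = 0.019). Cd3e fell by 1.26 in WT (SE 0.19, adjusted p = 0.0069), and Cd3d passed only in the average over genotype (-0.82, SE 0.17, adjusted p = 0.013). The signalling chain Cd247 was 59.7 to 66.5 FPKM in WT controls and 32.5 to 50.6 after IRI, and the coreceptor Cd4 was 85.7 to 101 and 49.7 to 70.7, neither past the threshold (adjusted p = 0.25 for both). In KO the groups overlapped for both, with Cd247 at 75.4 to 125 FPKM in controls and 77.4 to 88.4 after IRI, and Cd4 at 183 to 382 and 149 to 237. Relative to the CD3 genes the picture for the alpha chain turned: after each library was scaled by the geometric mean of Cd3d, Cd3e and Cd3g, Trac was higher after IRI in WT (0.53), a scale on which the median of all genes was 1.19 and 67.6% of them were called higher. FPKM of Trac per summed Trbc FPKM was 2.33 to 2.63 in WT controls and 2.60 to 3.51 after WT IRI, and 2.05 to 2.46 against 2.65 to 3.48 in KO.

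**Figure D1:**
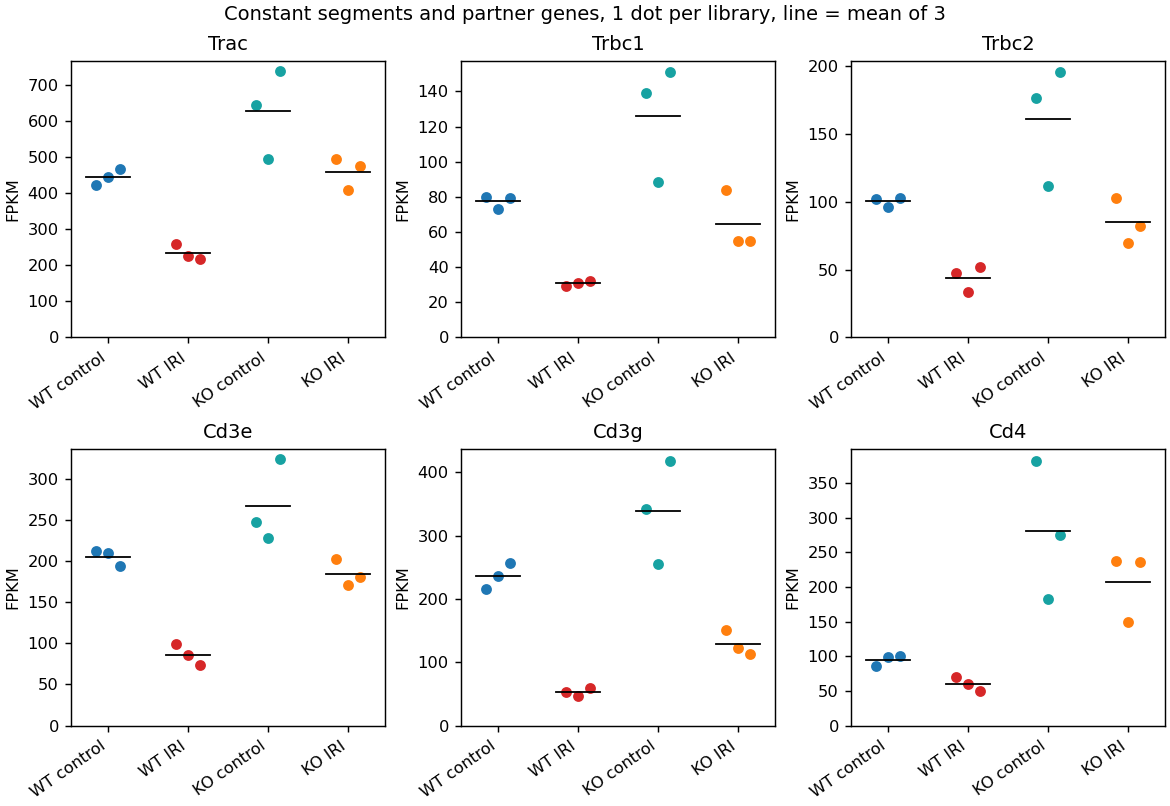
FPKM of Trac, Trbc1, Trbc2, Cd3e, Cd3g and Cd4 in each library, with 1 dot per library, groups on the horizontal axis and a line at the mean of 3. For the 3 constant segments the WT IRI libraries lie lowest and the KO control libraries highest, and Cd4 is above all WT libraries in all 6 KO libraries.

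The Trbv segments carried most of the calls after injury. In WT 13 members fell and none rose, 9 of them Trbv, against 3.78% of all genes called in either direction and 2.59% called lower. The calls rested on several libraries, since leaving out 1 library at a time gave 5 to 14, with 5 without WT control 2, 6 without WT control 1, 6 without WT IRI 1 and 8 without WT control 3. The median difference of the 22 Trbv segments was -0.82, against -0.65 over the 137 members and 0.00029 over all genes tested. Of the Trbv segments 13 lay lower without overlap between the groups and 2 higher, where 14.4% and 9.28% of all genes did so. The largest falls were in segments of the 12 and 13 families. Trbv13-1 was 48.2, 45.5 and 44.9 FPKM in WT controls and 9.08, 13.7 and 10.6 after IRI (difference -1.98, SE 0.22, adjusted p = 0.0020, limma). Trbv13-2, the Trbv segment with the highest mean (58.5 FPKM), was 69.6, 65.3 and 119 against 20.2, 22.5 and 20.8 (difference -1.90, SE 0.26, adjusted p = 0.0050). WT control 3 stood apart for this segment, and every IRI library was below every control.

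Trbv12-2 was 14.6, 15.5 and 16.4 FPKM in WT controls and 3.65, 6.04 and 1.24 after IRI, a difference of -1.98 (SE 0.37, adjusted p = 0.018, limma). Trbv13-3 fell by 1.59 (SE 0.26, adjusted p = 0.0091) and Trbv1 by 1.58 (SE 0.29, adjusted p = 0.014). The other called Trbv segments were Trbv2, Trbv3, Trbv5 and Trbv29, with Trbv29 at 49.1, 51.7 and 50.7 against 19.2, 21.9 and 21.9 FPKM (difference -1.23, SE 0.18, adjusted p = 0.0067). Trbv5 shares 78.4% and Trbv4 73.2% of their words of 36 bases with the overlapping gene 5830405F06Rik, so the values of these 2 are uncertain.

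A few Trbv segments did not share this direction. Trbv26 was 13.4, 12.5 and 9.50 FPKM in WT controls and 14.7, 20.9 and 23.6 after IRI, so that all IRI libraries were above all controls, and the difference of 0.68 (SE 0.27) did not pass the threshold (adjusted p = 0.20, limma). Trbv19 was 18.0, 18.7 and 9.63 against 19.0, 25.4 and 22.1 FPKM (difference 0.54, SE 0.28, adjusted p = 0.36), again without overlap. On the scale of the CD3 genes both were higher after IRI in WT, Trbv26 by 2.08 (adjusted p = 0.00012) and Trbv19 by 1.95 (adjusted p = 0.00029), beside the 67.6% of all genes called higher on that scale. In KO the groups overlapped for both. Trbv26 was 23.7, 19.9 and 38.8 FPKM in controls and 31.2, 22.5 and 27.9 after IRI, and Trbv19 was 39.2, 32.3 and 51.2 against 49.9, 30.3 and 43.7.

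In KO after IRI 2 members fell and none rose, against 0.866% of all genes called in either direction and 0.539% called lower. Trbv13-2 was 109, 64.3 and 103 FPKM in KO controls and 36.4, 32.7 and 38.9 after IRI (difference -1.30, SE 0.26, adjusted p = 0.049, limma). Trbv29 was 34.8, 33.7 and 47.8 against 17.7, 16.6 and 23.4 (difference -0.97, SE 0.18, adjusted p = 0.043). Both are close to the threshold, and the number called was 0 when any one of KO IRI 2, KO IRI 3, KO control 1, KO control 3, WT IRI 1, WT IRI 2, WT control 1 or WT control 2 was left out, 1 without WT IRI 3 or WT control 3, 3 without KO IRI 1 and 8 without KO control 2. The 3 called without KO IRI 1 included neither Trbv13-2 nor Trbv29, and the 8 called without KO control 2 included both. Of all genes 1.6% were called without KO IRI 1 and 4.25% without KO control 2. Among those that did not pass, the lower ones with the smallest p were Trbv13-1, Trbv5 and Trbc1, with Trbv13-1 first (45.3 to 65.4 FPKM in KO controls, 19.9 to 31.3 after IRI, difference -1.09, SE 0.22, adjusted p = 0.051). The higher ones with the smallest p were Trav6d-5, Traj3 and Traj24, with an adjusted p of 0.39 to 0.46. Of the 22 Trbv segments 10 lay lower without overlap and none higher, where 9.15% and 8.21% of all genes did so.

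The difference between genotypes in the response to IRI was tested itself. No member passed (limma), where 0.00518% of all genes were called. An unadjusted p under 0.05 was found for 9 of 137 members and for 646 of the 19288 genes tested. The members with the smallest p were Trav12-3, Trbv13-3 and Trbj1-2 on the positive side and Trav7-6, Trbv26 and Trbv17 on the negative side, each with an adjusted p of 0.999. Without WT control 3 alone, 1 member passed, where 0.0571% of all genes were called. Trbv13-3 was 25.4, 30.7 and 21.7 FPKM in WT controls, 10.5, 8.06 and 5.76 in WT IRI, 34.3, 28.2 and 52.7 in KO controls and 27.6, 25.3 and 27.7 in KO IRI (interaction 1.13, SE 0.36). Averaged over genotype 15 members fell and none rose, 10 of them Trbv, against 9.04% of all genes called in either direction and 6.03% called lower, with Trbv13-2 (-1.60, SE 0.18, adjusted p = 0.00073) and Trbv13-1 (-1.53, SE 0.15, adjusted p = 0.00035) at the head, followed by Trbv12-2 (-1.48), Trbv5 (-1.33) and Trbv1 (-1.21).

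**Figure D2:**
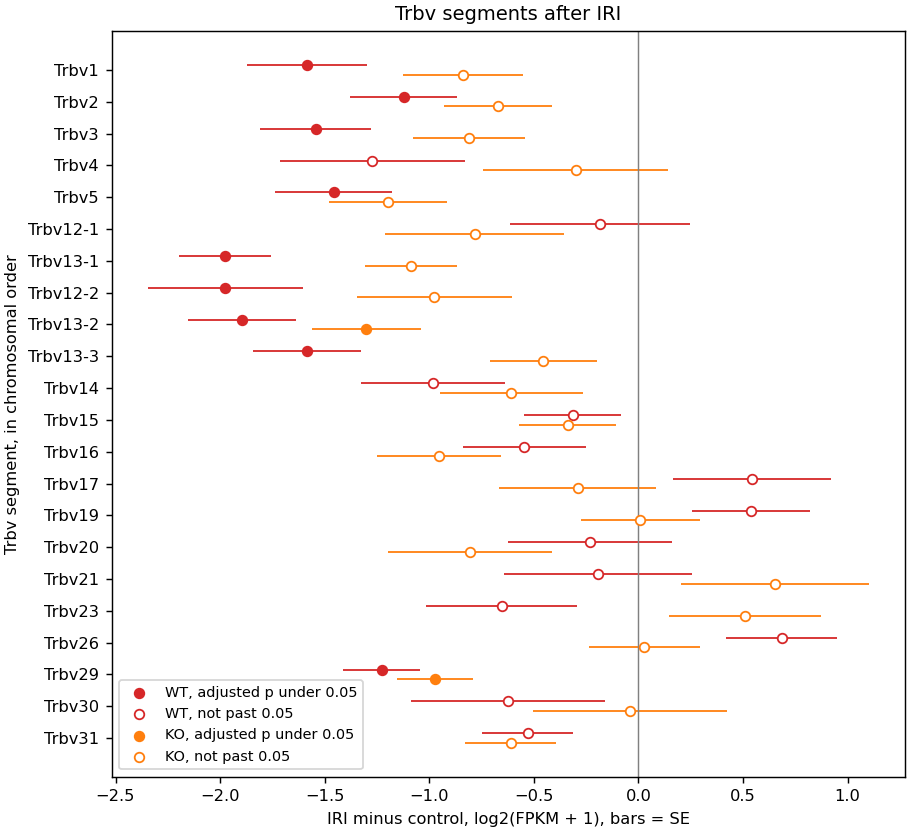
Difference between IRI and control for each of the 22 Trbv segments on the log2(FPKM + 1) scale, in WT (red) and KO (orange), with SE bars and filled symbols for an adjusted p under 0.05. In WT 9 segments are filled and all of them lie below 0, in KO Trbv13-2 and Trbv29 are filled, and Trbv17, Trbv19 and Trbv26 lie above 0 in WT.

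Shares within a class do not depend on the scaling of a library, so each Trbv segment was also expressed as a percentage of the summed Trbv FPKM of its library. That sum was 468 to 502 FPKM in WT controls, 202 to 258 in WT IRI, 584 to 912 in KO controls and 374 to 520 in KO IRI. In all, 4 percentages were lower after IRI without overlap in both genotypes, those of Trbv5, Trbv12-2, Trbv13-1 and Trbv13-2, and 2 were higher in both, those of Trbv19 and Trbv26. The WT and KO comparisons share no library. Shares of a sum constrain each other, since a lower share of some segments raises the others, and no test was made of them.

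Trbv19 took 3.80%, 3.72% and 2.06% of the Trbv sum in WT controls and 9.42%, 9.84% and 10.7% after IRI, and 5.15%, 5.53% and 5.62% in KO controls against 9.59%, 8.12% and 9.57% after IRI. Trbv26 took 2.83%, 2.50% and 2.03% in WT controls and 7.31%, 8.12% and 11.4% after IRI, and 3.11%, 3.41% and 4.26% against 5.99%, 6.03% and 6.11% in KO. Trbv13-1 took 10.2%, 9.06% and 9.59% in WT controls and 4.50%, 5.33% and 5.13% after IRI, and 7.95%, 7.76% and 7.17% against 6.02%, 5.32% and 6.19% in KO. After IRI the shares of Trbv19 and Trbv26 were above and that of Trbv13-1 below every control of the same genotype, with wider gaps between the group means in WT than in KO, a difference that was not tested.

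In WT 6 of 22 shares were higher and 4 lower without overlap, and in KO 5 were higher and 4 lower. Shares have no counterpart over all genes. Of the 108 Trav shares of the summed Trav FPKM, 2 were higher and 4 lower in WT and 3 and 6 in KO, with none the same way in both genotypes. After removal of KO control 1 (high in B cell genes) and of WT IRI 3 and WT control 3 (many zeros), a set chosen after the data were seen, the numbers were 8 and 9 in WT and 5 and 5 in KO, counts that cannot fall when libraries are removed and so do not show how far they rest on these 3. The widest range over libraries was that of Trbv13-2, from 7.0% in KO IRI 1 to 25.4% in WT control 3. It rested on that library, since no other was above 14.7%, and without it Trbv26 ranged more widely, from 2.50% to 11.4%. The spread over segments, given as the effective number (the inverse of the summed squared shares), was 8.93 in WT control 3 and 12.5 to 16.7 in the other libraries.

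**Figure D3:**
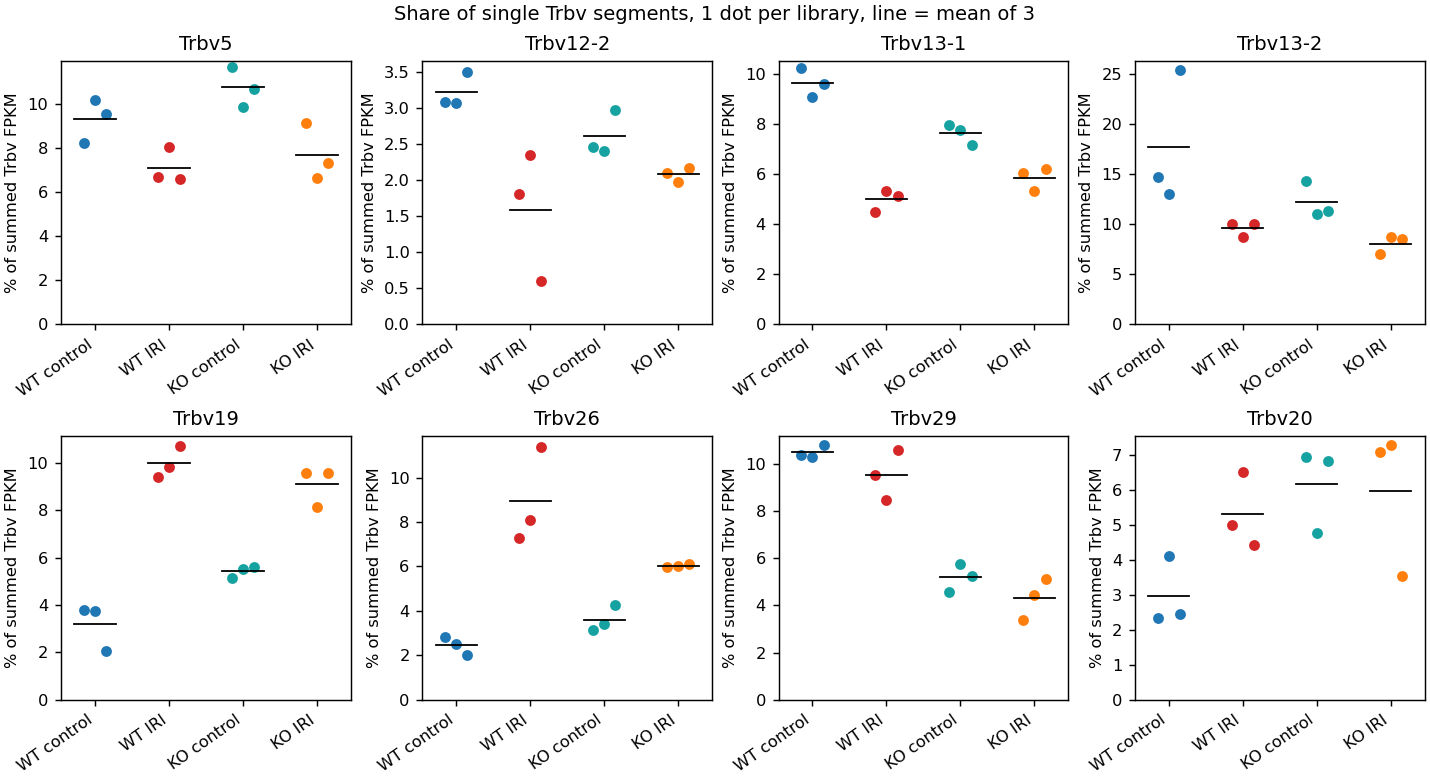
Percentage of the summed Trbv FPKM taken by 8 Trbv segments, with 1 dot per library and a line at the mean of 3 in each group. Trbv5, Trbv12-2, Trbv13-1 and Trbv13-2 are lower after IRI in both genotypes, Trbv19 and Trbv26 are higher in both, and Trbv29 is lower in all 6 KO than in all 6 WT libraries.

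The comparison of genotypes at one condition gave no called member. In controls 39 of 137 members had an unadjusted p under 0.05, as did 4022 of the 19288 genes tested. After adjustment (limma) 0 members passed, where 0.0259% of all genes were called. After IRI 53 of 137 members had an unadjusted p under 0.05, as did 4324 of the 19288 genes. Again 0 members passed after adjustment, where 0.057% of all genes were called. The members were nevertheless mostly higher in KO: the median difference was 0.85 in controls and 1.21 after IRI, against 0.30 and 0.26 over all genes tested. In controls 36 members were higher without overlap and 2 lower, and after IRI 61 were higher and 1 lower, where 20.1% and 3.69% of all genes did so in controls and 24.9% and 7.49% after IRI. These 2 comparisons use the same libraries as the comparisons of IRI with control. Without KO control 2 alone, 13 members were called in controls and 12 after IRI, where 9.38% and 2.37% of all genes were called. In controls 1 was called without WT IRI 3 (0.0469% of all genes), and after IRI 2 were called without WT control 3 (0.0727%).

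Averaged over condition 37 members were higher in KO and none lower, against 13.7% of all genes called in either direction and 11.9% called higher. They were Trac, Trbc1 and Trbc2, 16 of the 22 Trbv, 14 of the 49 tested Trav and 4 of the 50 tested Traj. This number rested on the scaling. The median gene was 0.29 higher in KO, and after division by median ratios, which brought that to 0.035, only Trbv3, Trbv13-3, Trbv31 and Trav4-3 remained, where 0.378% of all genes were called higher. It also moved with single libraries, to 1 without KO control 3, 2 without KO IRI 1 or WT control 2, 3 without KO control 1 or WT control 1, 11 without KO IRI 3, 13 without WT IRI 3 and 17 without WT control 3. Without KO control 2 it was 45. The share of all genes called moved too, from 0.205% without KO control 3 to 30.4% without KO control 2.

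Trbv31, which lies downstream of the constant segments in the opposite orientation (chr6:41557691-41558452, minus strand), had the smallest p. It was 11.3, 13.8 and 10.1 FPKM in WT controls, 8.01, 10.8 and 5.26 in WT IRI, 30.9, 30.4 and 33.0 in KO controls and 20.96, 18.7 and 21.1 in KO IRI. Every KO library was above every WT library, and the difference was 1.32 (SE 0.15, adjusted p = 0.0064, limma) as deposited and 1.02 (adjusted p = 0.012) after median ratios. Trbv3 differed by 1.27 as deposited (SE 0.19, adjusted p = 0.017) and Trbv13-3 by 1.08 (SE 0.18, adjusted p = 0.022). Trac differed by 0.72 (SE 0.14, adjusted p = 0.025) as deposited and by 0.40 (adjusted p = 0.074) after median ratios. The partner genes were also higher in KO: Cd4 by 1.62 (SE 0.20, adjusted p = 0.0088), Cd3g by 0.88 (adjusted p = 0.023), Cd3e by 0.73 (adjusted p = 0.023), Cd247 by 0.75 (adjusted p = 0.028) and Cd3d by 0.63 (adjusted p = 0.039), all as deposited.

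Trbv29 was the Trbv segment that ran against this direction. Its FPKM was 34.8, 33.7 and 47.8 in KO controls against 49.1, 51.7 and 50.7 in WT controls (difference -0.39, SE 0.18, adjusted p = 0.25, limma), and 17.7, 16.6 and 23.4 in KO IRI against 19.2, 21.9 and 21.9 in WT IRI (difference -0.13, SE 0.18, adjusted p = 0.68). The difference averaged over condition was -0.26 (SE 0.13, adjusted p = 0.16). As a percentage of the Trbv sum it was 10.4%, 10.3% and 10.8% in WT controls and 9.53%, 8.51% and 10.6% in WT IRI, and 4.56%, 5.78% and 5.24% in KO controls and 3.40%, 4.43% and 5.13% in KO IRI. All 6 KO libraries were thus below all 6 WT libraries. On the scale of the CD3 genes it was lower in KO by -1.0 averaged over condition (SE 0.15, adjusted p = 0.0085), where 16.3% of all genes were called lower.

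Of the 108 Trav segments 40 were listed at 0 in all 12 libraries, and 68 were above 0 in at least 1. Every one of the 40 shared more than 99% of its words of 36 bases with another receptor segment, 37 of them all words, and 37 carry the d or n suffix of a duplicated copy. None of the other 68 shared more than 93.6%, with a median of 55.7%. A listed 0 of such a copy therefore does not show that the segment was unused. Among the 49 tested Trav segments the mean level ran from 1.02 to 13.4 FPKM. The highest were Trav7-5 (13.4 FPKM), Trav6-7-dv9 (11.2), Trav4-3 (8.12), Trav4-4-dv10 (7.86) and Trav21-dv12 (7.25), of which only Trav21-dv12 shared no word with another segment.

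**Figure D4:**
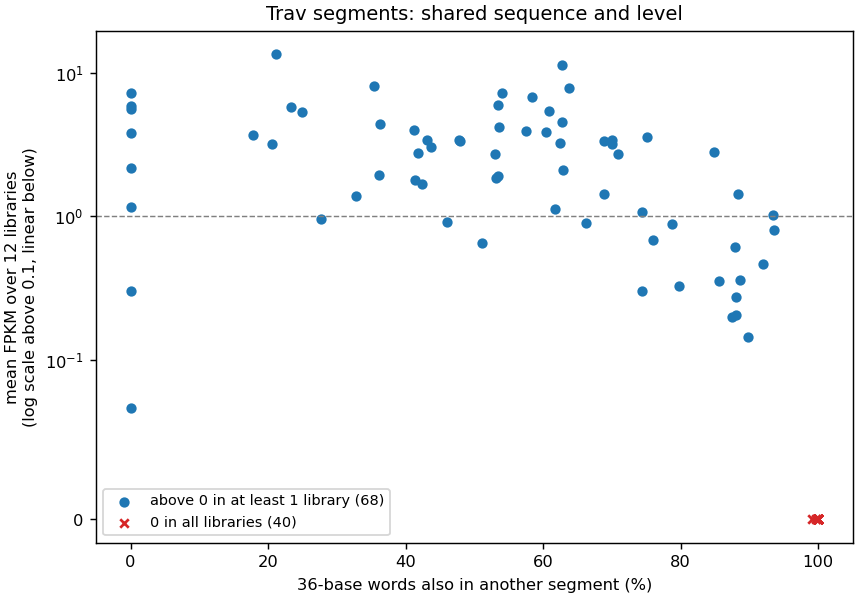
Mean FPKM over 12 libraries of each of the 108 Trav segments (vertical axis, logarithmic above 0.1 and linear below) against the percentage of its words of 36 bases that occur in another receptor segment. The 40 segments at 0 in every library all lie at over 99%, and the dashed line marks the filter at 1 FPKM.

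Of the 49 tested Trav segments 1 was called after IRI in WT, beside the 2.59% of all genes called lower. Of the 49, 38 had a difference below 0, and 11 lay lower without overlap, where 14.4% of all genes did so. The called segment was Trav4-3, from 6.80, 5.27 and 8.96 FPKM to 2.01, 3.57 and 2.24 (difference -1.15, SE 0.28, adjusted p = 0.046, limma). In KO it was 15.4, 7.66 and 14.7 against 9.78, 10.7 and 10.4, which overlapped. Averaged over genotype 2 of the 49 fell, Trav4-2 by 1.12 (adjusted p = 0.039, limma) and Trav16n by 1.03 (adjusted p = 0.014), beside the 6.03% of all genes called lower. Averaged over condition the called Trav segments were higher in KO by 0.58 to 1.74, with Trav6-1 highest, which was at 0 to 5.004 FPKM in WT and 2.82 to 13.7 in KO (difference 1.74, SE 0.45, adjusted p = 0.037). Trav7-5 was 5.68 to 11.3 FPKM in the 6 WT libraries and 11.3 to 27.4 in the 6 KO libraries (difference 1.06, SE 0.21, adjusted p = 0.026).

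Joining segments had high FPKM and poor precision. They made up 92.9% to 98.1% of the summed FPKM of all segments, and across the 137 tested members the Spearman coefficient between length and mean FPKM was -0.77, a description over genes that share libraries. Levels of J segments are therefore not set beside those of V segments. The median coefficient of variation within a group was 87.8% for Traj and 87.3% for Trbj, against 25.0% for Trbv and 50.1% for Trav. Exact zeros made up 18.5% of the tested Traj values and 15.4% of the Trbj values, and they clustered in 2 libraries: WT control 3 listed 29 of 51 Traj at 0 and WT IRI 3 listed 21, against 2 to 14 elsewhere. Ranks of the Trbv segments agreed between libraries of one group with a median Spearman coefficient of 0.93 over 12 pairs, and those of the Trbj segments with 0.29.

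The highest beta joining segment, Trbj2-7, shows the scatter. It was 3829, 6945 and 0 FPKM in WT controls, 2020, 0 and 541 in WT IRI, 12723, 5906 and 3985 in KO controls and 5141, 3725 and 1056 in KO IRI. Trbj1-1, Trbj2-2, Trbj1-3 and Trbj1-2 followed with means of 2882, 2381, 1868 and 1732 FPKM. Trbj1-2 came closest to a call, at 3945, 1521 and 2318 FPKM in WT controls and 139, 0 and 202 after IRI (difference -6.30, SE 1.61, adjusted p = 0.059, limma), and it was 573 to 2728 FPKM in all 6 KO libraries. No Trbj segment passed in any comparison as deposited, and after median ratios Trbj1-2 did in this one (adjusted p = 0.0497), where 4.68% of all genes were called lower. The Trbj1 cluster, which lies upstream of Trbc1, took 27.7% to 65.8% of the Trbj sum. In WT it took 45.6% to 65.8% in controls and 27.7% to 59.6% after IRI, which overlapped. In KO it took 36.6% to 49.8% in controls and 52.8% to 59.8% after IRI, without overlap.

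Among the alpha joining segments Traj9, Traj22, Traj6, Traj34 and Traj49 had the highest means (1934, 1853, 1680, 1393 and 1313 FPKM), and no Traj segment passed after IRI in either genotype. Averaged over condition 4 of the 50 tested Traj segments were called higher in KO, Traj50, Traj33, Traj52 and Traj37, a share below the 11.9% of all genes called higher. Traj50 was 0, 164, 0, 0, 130 and 0 FPKM over the WT libraries and 151 to 1878 in KO (difference 6.30, SE 1.54, adjusted p = 0.035, limma), and Traj52 was 0 to 362 in WT and 232 to 908 in KO (difference 5.64, SE 1.42, adjusted p = 0.036). Differences of this size rest on zeros set to the pseudocount of 1 and are no measure of a ratio. Traj37, which was above 0 in every library, was 16.8 to 993 FPKM in WT and 852 to 3455 in KO (difference 2.76, SE 0.81, adjusted p = 0.048). None of the 4 passed after median ratios.

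The position of the Traj segments in the locus was described over all of them, since so few were called. When the 51 Traj segments were split at the middle of their order, a split chosen after the values were seen, the upstream 25 from Traj59 to Traj31 took 23.2%, 29.5% and 23.7% of the Traj sum in WT controls and 33.0%, 22.1% and 33.9% in WT IRI. They took 44.4%, 44.6% and 47.2% in KO controls and 42.3%, 51.2% and 43.9% in KO IRI. Every KO library was above every WT library. The median difference between genotypes was 3.31 for the 24 tested upstream segments and 1.66 for the 26 downstream ones, and 3.12 and 1.35 after median ratios. Upstream segments were listed at 0 in 2 to 18 of 25 cases per WT library and 1 to 6 per KO library, and downstream segments in 1 to 11 of 26 and 1 to 4. The part of these zeros in the result was not tested.

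**Figure D5:**
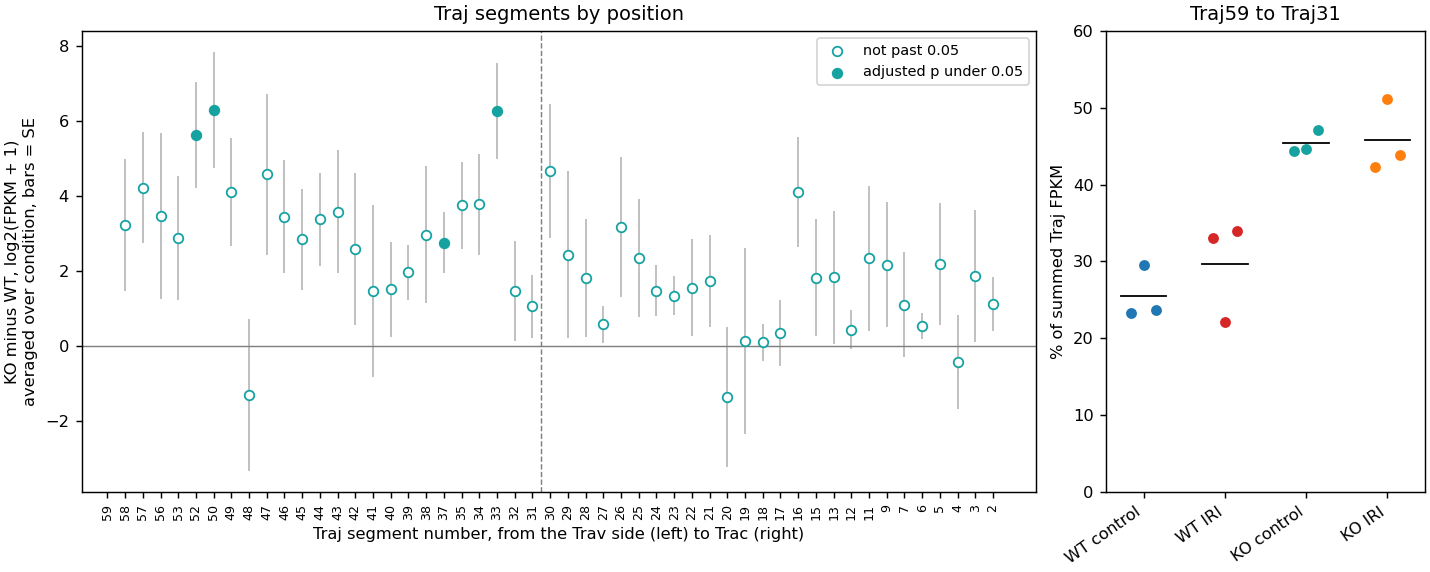
Left, difference between KO and WT averaged over condition for each tested Traj segment on the log2(FPKM + 1) scale with SE bars, ordered from the Trav side to Trac, with filled symbols for an adjusted p under 0.05 and a dashed line at the middle of the order. Right, percentage of the summed Traj FPKM taken by the upstream 25 segments in each library, which is 22.1% to 33.9% in WT and 42.3% to 51.2% in KO.

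CD4 sorts of kidney can hold T cells with invariant receptors, so their segments were read separately. Invariant NKT cells join Trav11 to Traj18 and pair it with Trbv13-2, Trbv29 or Trbv1. Trav11 and Trav11d were listed at 0 in all 12 libraries and share the sequence shown above. Traj18 was 831, 1540 and 174 FPKM in WT controls, 253, 199 and 146 in WT IRI, 455, 306 and 462 in KO controls and 236, 244 and 714 in KO IRI, and it passed in no comparison. All 3 beta segments fell after IRI in WT, and Trbv13-2 and Trbv29 also in KO. Conventional T cells use these beta segments too. Zbtb16, the transcription factor of NKT cells, was 10.6 to 29.3 FPKM in WT and 5.08 to 8.95 in KO (difference averaged over condition -0.98, SE 0.23, adjusted p = 0.032, limma). Of the 10 genes of the NKT and MAIT list, Tbx21, a transcription factor shared with Th1 cells, fell after IRI by 2.18 in WT (adjusted p = 0.00063) and by 1.70 in KO (adjusted p = 0.0040). Averaged over condition 5 were higher in KO as deposited, none of which passed after median ratios, among them Slamf6 (1.09, adjusted p = 0.023) and Il18r1 (0.99, adjusted p = 0.028), and 1, Zbtb16, was lower.

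MAIT cells join Trav1 to Traj33 and often use Trbv13 segments or Trbv19. Trav1 was 0.511 to 4.37 FPKM in WT and 1.43 to 4.25 in KO and passed in no comparison. Traj33 was 567, 260 and 0 FPKM in WT controls and listed at 0 in all 3 WT IRI libraries, and it was 1661, 671 and 618 in KO controls and 620, 318 and 244 in KO IRI (difference averaged over condition 6.29, SE 1.28, adjusted p = 0.027, limma). Trbv19 was higher in KO by 1.12 (SE 0.20, adjusted p = 0.023) averaged over condition as deposited and by 0.81 (adjusted p = 0.061) after median ratios.

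Of the 16 listed genes of proximal receptor signalling, 7 fell in WT after IRI and none rose, among them the kinase Lck (-1.53, SE 0.25, adjusted p = 0.0099, limma), the inhibitory receptor Cd5 (-1.40, SE 0.24, adjusted p = 0.011) and Themis (-1.22, SE 0.23, adjusted p = 0.019). In KO none passed. Averaged over genotype 9 fell. Averaged over condition 11 were higher in KO and none lower, beside the 11.9% of all genes called higher, and after median ratios Trat1, Cd5 and Lat passed. Among the 11 were Trat1 (1.22, SE 0.14, adjusted p = 0.0064), which binds the receptor complex and was the only one called between genotypes after IRI (1.46, SE 0.20, adjusted p = 0.042), Cd5 (1.16, adjusted p = 0.016) and the adaptor Lat (0.90, adjusted p = 0.023). Of the 13 recombination genes 9 could be tested, and the only call was Prkdc, a repair kinase, which fell after IRI averaged over genotype (-0.79, SE 0.18, adjusted p = 0.022). The recombinase genes Rag1 and Rag2 were at or below 0.746 FPKM in every library.

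Markers of other lymphocytes were also called after IRI. Averaged over genotype 3 of 4 gamma delta genes fell, Tcrg-C4 (-1.43, adjusted p = 0.0013, limma), Tcrg-C1 (-1.31, adjusted p = 0.0052) and Tcrg-C2 (-1.61, adjusted p = 0.012). Both CD8 genes fell, Cd8b1 by 0.96 (adjusted p = 0.0036) and Cd8a by 0.96 (adjusted p = 0.014), and 3 of 4 NK cell genes fell, with Ncr1 (-1.64, adjusted p = 0.0051), Gzma (-1.52, adjusted p = 0.0030) and Eomes (-0.65, adjusted p = 0.028). Of the 7 B cell genes 5 fell, led by Ighm (-1.60, adjusted p = 0.00073), Ms4a1 (-1.71, adjusted p = 0.0070) and Cd79b (-1.53, adjusted p = 0.022). Of the 5 macrophage genes 2 fell, Adgre1 (-1.25, adjusted p = 0.0045) and C1qa (-0.82, adjusted p = 0.037). Of the 4 neutrophil genes 2 rose, S100a8 (2.52, adjusted p = 0.0055) and S100a9 (2.14, adjusted p = 0.033), and the other 2 were not called. In this comparison 6.03% of all genes were called lower and 3.01% higher. Averaged over condition 1 of 2 CD8 genes, Cd8b1 (0.85, adjusted p = 0.023, limma), and 1 of 7 B cell genes, Ighm (0.84, adjusted p = 0.030), were higher in KO as deposited. Pecam1, an endothelial gene that T cells also express, was also higher (0.57, adjusted p = 0.047). Of the 4 gamma delta genes Tcrg-C1 alone was called, and it was lower (-1.09, adjusted p = 0.027). As deposited 11.9% of all genes were called higher in KO and 1.76% lower, and after median ratios 0.378% were called higher. The part of these markers in the differences of the alpha and beta segments was not tested.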

How the data were processed

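Per the file headers, the authors deposited 1 FPKM value per gene and library, for 12 libraries and 52632 genes. Per the labels' protocols, 1 ng of total RNA from flow sorted CD4 T cells entered a stranded total RNA kit and was sequenced as paired 36 bp reads. Tools listed in the submitters' processing notes are Cufflinks 2.2.1, TopHat2 2.1.0, bcl2fastq 2.17.1.14 and Partek 7.0. How reads that fit several segments or cross a V-J join were assigned is not given in the sources used here, and it bears on every V and J value. Gene IDs were matched to GENCODE mouse release 21 (52485 matched). Words of 36 bases were compared between the transcripts of all genes on both strands.

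Tests used limma 3.58.1 in R 4.3.3 on log2(FPKM + 1), the prior variance following mean expression, for the 19288 genes that averaged 1 FPKM or more, 1 mean per group, 7 comparisons and Benjamini-Hochberg adjustment at 0.05 within each comparison. The scale understates changes of low genes. The code was tested on simulated data. Genes were named by rule: the constant segments and CD3 genes, members past the threshold (5 largest each way where over 10), the 5 highest of each class, NKT and MAIT segments, the 3 Trbv with the widest share range, and up to 3 called genes per list, of which some are not reported here. Nqo1, Zbtb16, Rag1, Rag2, Trbv2, Trbv4, Trav4-2, Trav16n and the split of Traj were added after their values were seen. The members and lists were chosen with earlier results of these data known.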

Additional observations from a re-analysis of the deposited data

How the results depend on the processing

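After IRI in WT 13 segments were called. Percentages in brackets here are of all genes tested in that setting, called in either direction. The number was 2 at a common FPKM sum (0.56%) and 20 with array weights (11.6%). It was 4 (1.36%) without 3 libraries together (KO control 1, WT IRI 3, WT control 3), a set chosen after seeing the data. In KO it was 2, against 4 after median ratios (2.06%) and 18 with array weights (14.3%). It was 0 at a common FPKM sum, without a filter, without a mean-variance trend or without the 3 libraries. Between genotypes it was 37 of 137 instead of 0 in controls with array weights, where 33% of all genes were called. After IRI it was 8 with Cd3 scaling (27.9%), 6 at a minimum mean of 5 FPKM (0.792%) and 20 with array weights (4.24%). Without the 3 libraries it was 1 (0.0934%), and for the interaction it was also 1 without them (0.104%). Averaged over genotype 15 became 27 with array weights (23.9%). Averaged over condition 37 became 4 after median ratios (0.55%), 1 after quantile normalization (0.28%) and 0 at a common FPKM sum (0.0726%). It became 5 with Cd3 scaling (16.5%), 6 without a filter (0.444%), 61 with array weights (38%) and 2 without the 3 libraries (0.265%). Leaving out 1 library gave 5 to 14 calls after IRI in WT, 0 to 8 in KO, 0 to 13 between genotypes in controls, 0 to 12 after IRI, 0 to 1 for the interaction, 13 to 19 averaged over genotype and 1 to 45 averaged over condition. The cause of these changes was not tested.

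Scaling by the Cd3 genes moved the median of all genes after IRI in WT to 1.19, so directions after it follow from its construction. It gave 22 calls in WT (18 higher, 4 lower, 2 shared with the 13), 4 in KO (all higher, 0 shared) and 24 averaged over genotype (22 higher, 2 lower, 4 shared with the 15). Of all genes 67.6% were called higher in WT, 28.8% in KO and 68.9% averaged over genotype. Of 2633 alternatives for 106 named results past the threshold, 1862 kept the direction and the call, 744 lost the call and 27 turned, all 27 under this scaling, whose divisor contains Cd3d and Cd3e themselves. After IRI in WT these were Cd3e 0.19, Cd5 0.017, Themis 0.19, Trac 0.53, Trat1 0.31, Trav4-3 0.019, Trbc1 0.13, Trbc2 0.25 and Trbv29 0.19. Averaged over genotype they were C1qa 0.29, Cd3d 0.31, Cd3e 0.28, Eomes 0.075, Prkdc 0.23, Trac 0.49, Trat1 0.30, Trbc1 0.029, Trbc2 0.11, Trbv13-3 0.084, Trbv29 0.034 and Trbv31 0.52. For KO against WT averaged over condition they were Cd3d -0.11, Cd3e -0.025, Lck -0.050, Pecam1 -0.17, Themis -0.14 and Trac -0.035.

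The labels do not say whether replicate numbers pair the libraries, and the correlations between libraries of different groups do not settle it. Of 18 pairs with the same number 1 had a correlation over 0.1 (range -0.037 to 0.20). Pairs with different numbers ranged from -0.15 to 0.12. The highest value was that of WT control 3 with WT IRI 3, and 7 of 12 libraries correlated best with one of their own number. With the replicate block the calls were 12 after IRI in WT, 1 in KO, 0 in both comparisons of genotypes and the interaction, 13 averaged over genotype and 31 averaged over condition. Of all genes it called 2.85% after IRI in WT, 0.741% in KO, 8.02% averaged over genotype and 8.75% averaged over condition. FPKM hold no depth, so a listed 0 has no upper limit here.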
